A study of Mus musculus with 16 samples.

Results

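Pyraclostrobin and picoxystrobin were compared in C17.2α cells at 3 concentrations that both compounds shared, 30, 100 and 300 nM. Both are strobilurins, fungicides that block complex III of the mitochondrial respiratory chain, the cytochrome bc1 complex, which passes electrons from ubiquinol to cytochrome c. They differ in the group that carries the methyl ester, a methoxyacrylate in picoxystrobin and a methoxycarbamate in pyraclostrobin, and in the side chain, a trifluoromethylpyridine in picoxystrobin and a chlorophenylpyrazole in pyraclostrobin. The 6 libraries were chosen by compound and concentration alone from the 16 libraries of the series, with 3 libraries for each compound. C17.2α is a mouse neural cell line from cerebellum, a single line that stably overexpresses the thyroid hormone receptor TRα1. All cells, those given either compound alike, were kept in medium with serum stripped of thyroid hormone by charcoal, without added T3, and were lysed 24 h after the compound was added in DMSO. Each concentration of each compound was 1 library from 1 experiment, so the 3 concentrations stood in for replicates and the p-values measure only the spread between these libraries. The solvent libraries were not used, so each value below places one compound against the other and not against untreated cells.

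Inhibition of the respiratory chain is known to reach the nucleus by several routes. One is the integrated stress response, in which the transcription factor Atf4 turns on genes for amino acid synthesis and import and for stress signalling. Another is p53, which acts through cell-cycle inhibitors such as Cdkn1a, and the mitochondrial genome itself encodes subunits of complexes I, III, IV and V, among them cytochrome b, the subunit that strobilurins bind.

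The 6 libraries held 12292390 to 18188099 counts. Markers of neural progenitors were present, with 10 of 16 above an average of 10 CPM (counts scaled to the library total), Nes at 172.6 CPM, Sox2 at 41.1 CPM and Vim at 2712 CPM on average, while Sox1 was at 0 in all 6. Of 8 microglial and macrophage markers 0 reached that level, nor did any of 7 endothelial markers. Markers of fibroblasts and mesenchyme were also present, 7 of 10, and their summed level was 7202 to 7476 CPM in the picoxystrobin libraries and 4745 to 6587 CPM in the pyraclostrobin libraries, lowest at 300 nM. Most of this sum was Col1a1, Col3a1 and Col1a2, at averages of 2893, 2404 and 960 CPM. At 300 nM these, Dcn and Snai2 were lower with pyraclostrobin. Pdgfrb (147.8 CPM against 124.6 CPM with picoxystrobin) and Twist1 (93.2 against 91.7 CPM) were not. In such bulk samples fewer cells of a type and less RNA per cell cannot be told apart. The share of counts from mitochondrial genes was 10.6% to 12.7% with picoxystrobin and 9.68% to 11.6% with pyraclostrobin. Mean GC content weighted by counts was 46.5% to 47.1% with picoxystrobin and 47.3% to 47.5% with pyraclostrobin, with no overlap between the compounds. The part of these library properties in the results below was not tested, except for GC content, which was corrected for as described.

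Of 9709 genes with an average above 10 CPM, 469 (4.83%) were higher and 357 (3.68%) lower with pyraclostrobin at an adjusted p below 0.05, by edgeR's quasi-likelihood test with concentration as a block. The lowest adjusted p was 0.0409, so all of these calls lay close to the threshold. The values of the 2 compounds did not overlap for 453 of the 469 and 349 of the 357, and over all tested genes all 3 pyraclostrobin values lay above those of picoxystrobin for 2028 (20.9%) and below for 1870 (19.3%). DESeq2 called 374 higher and 461 lower. Without the block edgeR called 709 genes, and 0 once the 30, 100 or 300 nM picoxystrobin library or the 100 nM pyraclostrobin library was left out, with 2122 to 3051 below an unadjusted p of 0.05. The genes higher with pyraclostrobin had a median transcript GC content of 56.9% and those lower 41.4%, against 48.8% over all tested genes. With a correction for GC content fitted to each library, edgeR called 0 genes (0%), although 2188 genes had an unadjusted p below 0.05, of which 1222 were higher (12.6% of those tested) and 966 lower (9.95%). DESeq2 with the same correction called 125 genes, 65 higher and 60 lower. Adding the 1000 nM libraries of both compounds to the uncorrected fit also left 0 genes called by edgeR, with 744 below an unadjusted p of 0.05.

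The relation with GC content was seen at each concentration. Across 9675 genes of each pair, which are not independent replicates, the log2 difference between the compounds correlated with GC content with Pearson's r of 0.49 at 30 nM, 0.67 at 100 nM and 0.51 at 300 nM. At 1000 nM the relation had the opposite sign, with r of -0.57. Genes under 40% GC had median log2 differences of -0.11, -0.28 and -0.38 at 30, 100 and 300 nM, and +0.41 at 1000 nM. Genes over 60% GC had medians of +0.22, +0.36 and +0.35, and -0.38 at 1000 nM. The pairs of libraries thus differed along GC content in one direction at the 3 lower concentrations and in the other at the highest. At 1000 nM mean GC content weighted by counts was 48.1% with picoxystrobin and 47.2% with pyraclostrobin. With 1 library per compound at each concentration, a property of a library and an effect of the compound cannot be told apart.

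**Figure D1:**
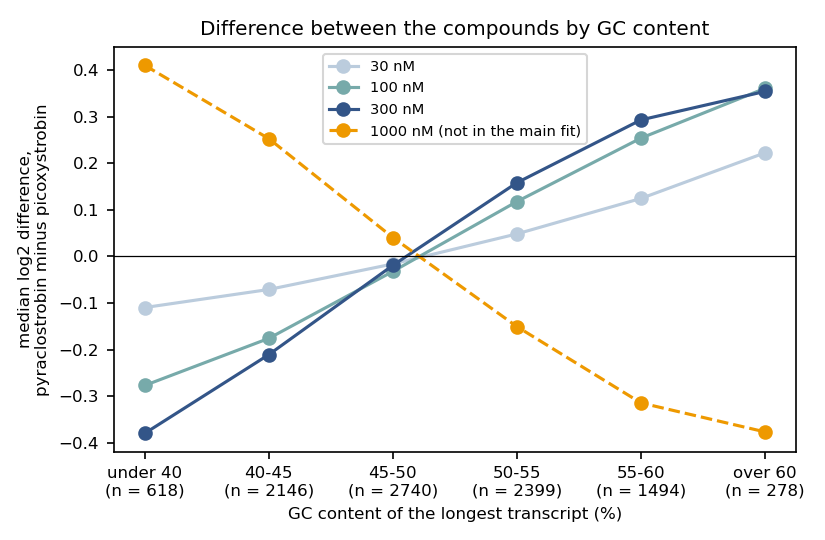
Median log2 difference between pyraclostrobin and picoxystrobin (y axis) for genes grouped by GC content of the longest transcript (x axis, %), one line per concentration and 1 library per compound at each. The 30, 100 and 300 nM lines climb with GC content, to +0.22, +0.36 and +0.35 above 60% GC, and the 1000 nM line descends to -0.38.

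Among genes called without the correction and higher with pyraclostrobin, the largest difference was that of Cdkn1a. This gene, the p21 inhibitor of cyclin-dependent kinases (chr17:29090976-29100727, mm10), was at 29.9, 26.7 and 29.7 CPM with picoxystrobin at 30, 100 and 300 nM and at 36.7, 48.2 and 135 CPM with pyraclostrobin. All pyraclostrobin values lay above all picoxystrobin values, with a log2 difference of 1.13 ± 0.29 (SE) and an adjusted p of 0.0492, which became 0.99 and 0.151 with the GC correction. Ptp4a3, a tyrosine phosphatase induced by p53, was at 65.6, 59.1 and 50.3 CPM with picoxystrobin and 93.0, 99.8 and 189 CPM with pyraclostrobin, a log2 difference of 1.06 ± 0.23. Next in size were Adamtsl4 (log2 difference 0.92), an ADAMTS-like matrix protein, Gm13889 (0.91) and Aldh4a1 (0.84), the mitochondrial enzyme that finishes proline breakdown. Each of the 5 had a GC content above 54% and an adjusted p of 0.146 to 0.168 with the correction.

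Among those lower with pyraclostrobin, the largest difference was that of a noncoding transcript. Gm42664, a sense-intronic transcript of 36.3% GC, was at 23.3, 23.2 and 23.8 CPM with picoxystrobin and 10.4, 10.6 and 6.63 CPM with pyraclostrobin, a log2 difference of -1.37 ± 0.16 (adjusted p = 0.0409). Ctgf, a secreted target of YAP, was at 11.9, 13.9 and 19.5 CPM with picoxystrobin and 7.99, 8.82 and 6.06 CPM with pyraclostrobin. Mir17hg, the noncoding host of the miR-17 cluster, followed with a log2 difference of -0.93, then Rpl22l1, a ribosomal protein paralog (-0.89), and 1810026B05Rik (-0.79), a noncoding transcript that shares exon sequence with Chd2. With the GC correction their log2 differences were -1.05 for Gm42664, -0.70 for Mir17hg, -0.75 for Rpl22l1 and -0.51 for 1810026B05Rik, with adjusted p of 0.140 to 0.144. Ctgf had no GC content in the annotation and was not corrected. With the correction edgeR called none of the 10 genes in these 2 groups, and DESeq2 called Rpl22l1 and gave no adjusted p for 7 of the others.

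Whether the compounds drew apart with concentration was tested as the slope of the log2 difference per concentration step, 30 to 100 and 100 to 300 nM, in the same 6 libraries. A positive slope means that expression shifted upward with pyraclostrobin relative to picoxystrobin as the concentration went up. The slope was positive for 156 genes (1.61%) and negative for 191 (1.97%). With the GC correction it was positive for 99 (1.02%) and negative for 64 (0.659%), and 80 positive and 54 negative genes were called both ways. DESeq2 called the slope for 37 genes, 13 positive and 24 negative. In edgeR the slope thus had calls with the correction, where the difference had 0, whereas DESeq2 with the correction called 125 genes for the difference and 20 for the slope. The slope had no calls in edgeR when the 1000 nM libraries were added, with 516 genes below an unadjusted p of 0.05. The pairs of libraries spread further with concentration: the log2 differences had an SD over genes of 0.17 at 30 nM, 0.26 at 100 nM, 0.40 at 300 nM and 0.39 at 1000 nM, and 2, 6, 175 and 120 genes differed over 2-fold.

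Of 35 tested p53 target genes, from a list of 46, 15 had a positive slope and 0 a negative slope, against 1.61% and 1.97% of all tested genes. With the GC correction the counts were 15 and 0, against 1.02% and 0.659%. The median log2 difference of the list was 0.06 at 30 nM, 0.24 at 100 nM and 0.83 at 300 nM, where the median over all genes was 0.02. For Cdkn1a, described above, the slope was 0.96 ± 0.10 (SE) log2 units per step, with an adjusted p of 0.00893, or 0.0107 with the correction. Ccng1, cyclin G1 (chr11:40748552-40755311), was at 528, 492 and 662 CPM with picoxystrobin and 541, 579 and 1649 CPM with pyraclostrobin at 30, 100 and 300 nM. The 300 nM pyraclostrobin library stood above the other 5, and the slope was 0.64 ± 0.10 (adjusted p = 0.0157). Trp53inp1, a p53-induced nuclear protein, showed the same shape, at 183, 183 and 192 CPM against 207, 197 and 521 CPM. Gtse1, a protein of the G2 and S phases that binds p53, was at 52.3, 39.9 and 33.4 CPM with picoxystrobin and 54.5, 54.5 and 113 CPM with pyraclostrobin, with a slope of 0.85. Among 30, 100 and 300 nM, the compounds were farthest apart at 300 nM in these 3 genes.

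Over the 3 concentrations 8 of the 35 p53 targets were called higher and 0 lower without the correction, against 4.83% and 3.68% of all tested genes. Phlda3, an inhibitor of Akt, was at 88.7, 89.2 and 74.5 CPM with picoxystrobin and 117.5, 133 and 201 CPM with pyraclostrobin, and the compounds did not overlap. Gpx1, glutathione peroxidase, had a log2 difference of 0.60 ± 0.12 and did not overlap either. Bbc3, the proapoptotic protein Puma, had a log2 difference of 0.58 and a slope of 0.09 that was not called (adjusted p = 0.738). The 1000 nM libraries, which were not part of these fits, held high values of several of these genes with both compounds. Cdkn1a was at 101 CPM with picoxystrobin and 141 CPM with pyraclostrobin, and Gtse1 at 127 and 137 CPM, so picoxystrobin had left the range of its 3 lower concentrations. The median difference of the list was 0.25 at 1000 nM. Ccng1 still differed widely there, at 841 CPM with picoxystrobin and 2138 CPM with pyraclostrobin.

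Of 53 tested genes of DNA replication and nucleotide synthesis 18 had a positive slope and 0 a negative slope, and 16 and 0 with the GC correction. The shares of all tested genes were 1.61% and 1.97%, or 1.02% and 0.659% with the correction. Their median log2 difference was 0.08, 0.12 and 0.75 at 30, 100 and 300 nM. Cdc6, which loads the replicative helicase, was at 25.9, 21.9 and 23.6 CPM with picoxystrobin and 23.8, 25.1 and 54.5 CPM with pyraclostrobin, a slope of 0.67 ± 0.11 (adjusted p = 0.0195). Rrm2, the regulated subunit of ribonucleotide reductase, was at 90.2, 77.1 and 97.6 CPM against 95.4, 82.1 and 195 CPM. Mcm4, a helicase subunit, was at 248, 210.0 and 212 CPM against 248, 228 and 378 CPM. In each of these 3 genes the 300 nM pyraclostrobin library held the highest of the 6 values. Tk1, thymidine kinase, Cdt1, the licensing factor, and Gins2, a helicase component, had log2 differences of 0.53, 0.52 and 0.63 and were the 3 members called higher over the 3 concentrations, with 0 called lower. Over all tested genes 4.83% were called higher and 3.68% lower. Of 61 mitosis and spindle genes 5 had a positive slope and 1 a negative slope, against 1.61% and 1.97% of all tested genes. Those with a positive slope were Aurkb, Cdca5, Ncaph, Spc24 and Spc25, which take part in chromosome cohesion, condensation and attachment, and Smc4, a condensin subunit, had the negative slope, which was not called with the GC correction.

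**Figure D2:**
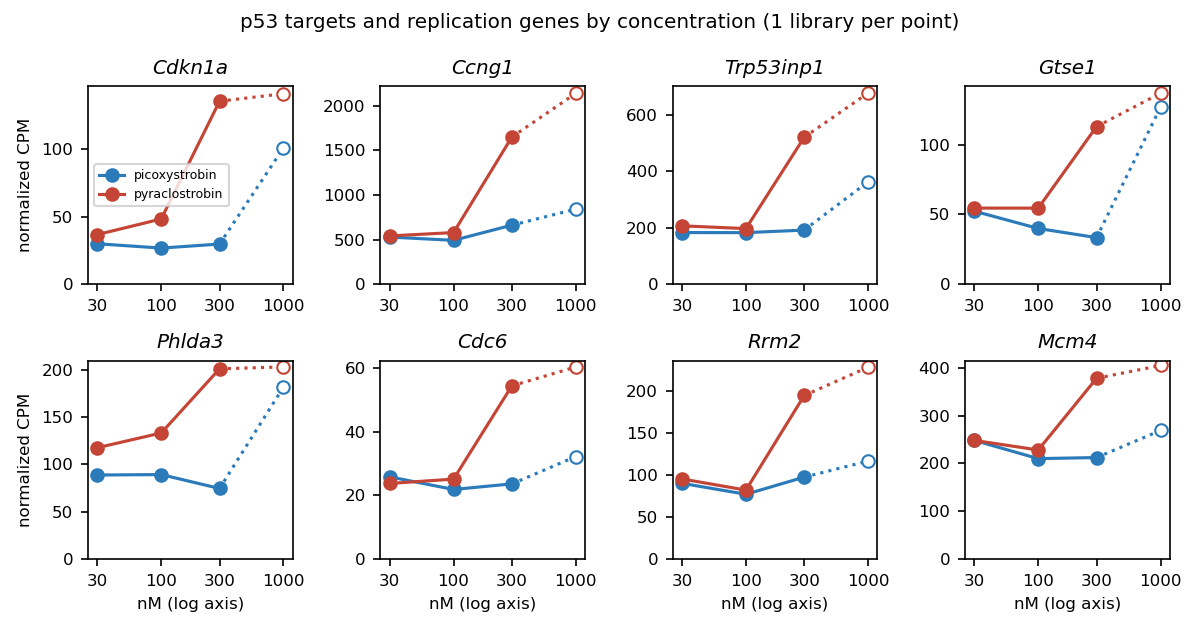
Normalized CPM (y axis, linear from 0) against concentration (x axis, nM, log axis) of 5 p53 targets and 3 replication genes, with 1 library per point, blue for picoxystrobin and red for pyraclostrobin, and open points at 1000 nM for libraries outside the main fit. In each panel the pyraclostrobin value at 300 nM is the highest of the 6 filled points, 135 CPM for Cdkn1a against 26.7 to 48.2 CPM in the others.

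Of 31 tested genes of the integrated stress response 15 had a negative slope and 0 a positive slope, and the counts were 15 and 0 with the GC correction too. The shares of all tested genes were 1.97% and 1.61%, or 0.659% and 1.02% with the correction. The median log2 difference was 0.05 at 30 nM, -0.05 at 100 nM and -0.69 at 300 nM. Slc7a11, the cystine importer (chr3:49892526-50443614), had the most negative slope of all genes called. It was at 15.1, 35.5 and 39.3 CPM with picoxystrobin at 30, 100 and 300 nM and at 17.8, 23.4 and 6.95 CPM with pyraclostrobin, a slope of -1.36 ± 0.15 (adjusted p = 0.00893, or 0.0107 with the correction). Chac1, which degrades glutathione (chr2:119351229-119354381), was at 18.3, 28.8 and 32.1 CPM against 18.8, 26.9 and 5.10 CPM, with a slope of -1.26 ± 0.25. The transcription factor Atf5 (chr7:44812256-44816658) was at 34.0, 57.1 and 66.7 CPM against 48.6, 67.8 and 20.5 CPM. In these 3 genes picoxystrobin values were higher at 100 and 300 nM than at 30 nM, while the lowest pyraclostrobin value was that at 300 nM.

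The promoters of such genes were searched for the letters of the element that Atf4 and its partners of the C/EBP family are known to bind. RefSeq promoter windows on GRCm38.p6, the assembly of mm10, from 250 bases before to 50 after the start of transcription, were at hand for 26 of the 31 tested members. The letters TGATGNAA were searched on both strands. They occurred in the windows of 8 of these 26 genes and of 7 of the 13 with a called slope. The shares were 2.56% of the 7235 tested genes with a window and 4.51% of all 27025 windows. The list holds known Atf4 targets, so a share above that of all genes can follow from the choice of list. No conclusion about Atf4 is drawn from these shares. The windows of 4 genes with both a called slope and a match follow, 5′ to 3′ on the strand of the gene. The matching letters or their reverse complement are in capitals.
Slc7a11, chr3:50443564-50443863, minus strand: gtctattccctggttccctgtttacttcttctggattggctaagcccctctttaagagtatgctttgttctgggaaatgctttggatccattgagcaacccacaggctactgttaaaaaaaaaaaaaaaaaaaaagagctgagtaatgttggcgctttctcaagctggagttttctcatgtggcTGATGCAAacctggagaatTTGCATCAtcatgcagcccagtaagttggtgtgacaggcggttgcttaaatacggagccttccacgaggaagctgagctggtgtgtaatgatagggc
Chac1, chr2:119350992-119351291, plus strand: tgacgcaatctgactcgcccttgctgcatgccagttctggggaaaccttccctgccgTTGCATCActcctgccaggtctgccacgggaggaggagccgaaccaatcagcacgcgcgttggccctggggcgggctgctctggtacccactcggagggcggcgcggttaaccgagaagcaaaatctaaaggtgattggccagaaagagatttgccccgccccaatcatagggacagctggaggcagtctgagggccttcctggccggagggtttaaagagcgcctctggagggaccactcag
Asns, chr6:7693160-7693459, minus strand: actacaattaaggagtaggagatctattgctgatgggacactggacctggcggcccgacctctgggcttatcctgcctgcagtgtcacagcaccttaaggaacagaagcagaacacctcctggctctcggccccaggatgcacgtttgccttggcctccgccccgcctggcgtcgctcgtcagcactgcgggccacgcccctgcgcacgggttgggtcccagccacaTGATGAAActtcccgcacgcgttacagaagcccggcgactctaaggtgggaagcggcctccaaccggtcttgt
Trib3, chr2:152344011-152344310, minus strand: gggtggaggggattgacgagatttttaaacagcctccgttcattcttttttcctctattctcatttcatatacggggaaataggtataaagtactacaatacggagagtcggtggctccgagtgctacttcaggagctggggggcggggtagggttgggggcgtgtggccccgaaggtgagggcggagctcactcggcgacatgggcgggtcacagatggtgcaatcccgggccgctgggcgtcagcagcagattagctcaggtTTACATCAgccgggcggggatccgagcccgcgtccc

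Slc7a11 held 2 matches, which began 66 and 47 bases before the start site, on opposite strands. The match of Chac1 began 193 bases before the start site, that of Asns 23 bases before it, and that of Trib3 at base 15 after it. A match of letters does not show binding. For the replication genes the E2F letters TTTCCCGC or TTTGGCGC, also searched on both strands, occurred in the windows of 13 of 45 members against 3.76% of tested genes, and in 2 of the 14 members with a called slope.

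Other members of the stress response list followed at smaller size. Atf4 itself had a slope of -0.48 ± 0.12, from 531, 627 and 644 CPM with picoxystrobin and 572, 711 and 355 CPM with pyraclostrobin. Its targets Trib3, a pseudokinase, and Ddit3, the factor CHOP, had slopes of -0.71 and -0.67. Psph, the last step of serine synthesis, was at 39.6, 68.8 and 72.5 CPM with picoxystrobin and 43.2, 54.3 and 33.7 CPM with pyraclostrobin, a slope of -0.62 ± 0.08. Asns, asparagine synthetase, was at 139, 199 and 209.9 CPM against 130.1, 173 and 107 CPM. Mitochondrial one-carbon enzymes Aldh1l2 and Mthfd2 had slopes of -0.44 and -0.38, and Pck2, mitochondrial PEP carboxykinase, had -0.57. The other members with a called slope were Cth, Nupr1, Slc7a1 and Vldlr. Only Cebpb, a C/EBP factor, was called for the difference over the 3 concentrations, and it was higher with pyraclostrobin, at a log2 difference of 0.45 that was 0.07 with the GC correction.

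The difference in the stress response genes was still present at 1000 nM. There Chac1 was at 35.1 CPM with picoxystrobin and 3.77 CPM with pyraclostrobin, Atf5 at 81.6 and 15.5 CPM, and Slc7a11 at 32.4 and 5.08 CPM. With the 300 and 1000 nM libraries alone, 2 for each compound and a comparison chosen after these values were seen, 12 of 9793 genes were higher (0.123%) and 14 lower (0.143%) with pyraclostrobin. With the GC correction 55 were higher (0.562%) and 74 lower (0.756%). Of the stress response list 6 were lower without the correction and 19 with it, and 0 were higher in either fit. The log2 difference was -2.95 for Chac1, -2.60 for Slc7a11, -2.07 for Atf5 and -2.04 for Trib3, with adjusted p of 4.31e-12, 6.47e-10, 7.74e-08 and 4.04e-06 in edgeR. With the correction edgeR's adjusted p was less extreme, 3.77e-05 for Chac1, 0.000148 for Slc7a11 and 8.61e-05 for Atf5. With 2 libraries for each compound, the p-values of this comparison lean on a spread pooled over genes. They say little about the spread of each gene. Without the correction the SE was 0.36 for Chac1, 0.31 for Atf5 and 0.31 for Klf9, which was not called. Of the p53 list 4 were higher without the correction, Ddias (log2 difference 1.36), Ccng1 (1.32), Cdkn1a (1.31) and Trp53inp1 (1.15), and 10 with it. Of the replication list 1 was higher without the correction, Ccne2, cyclin E2, and 10 with it. The 300 nM libraries enter this comparison and the slope alike.

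**Figure D3:**
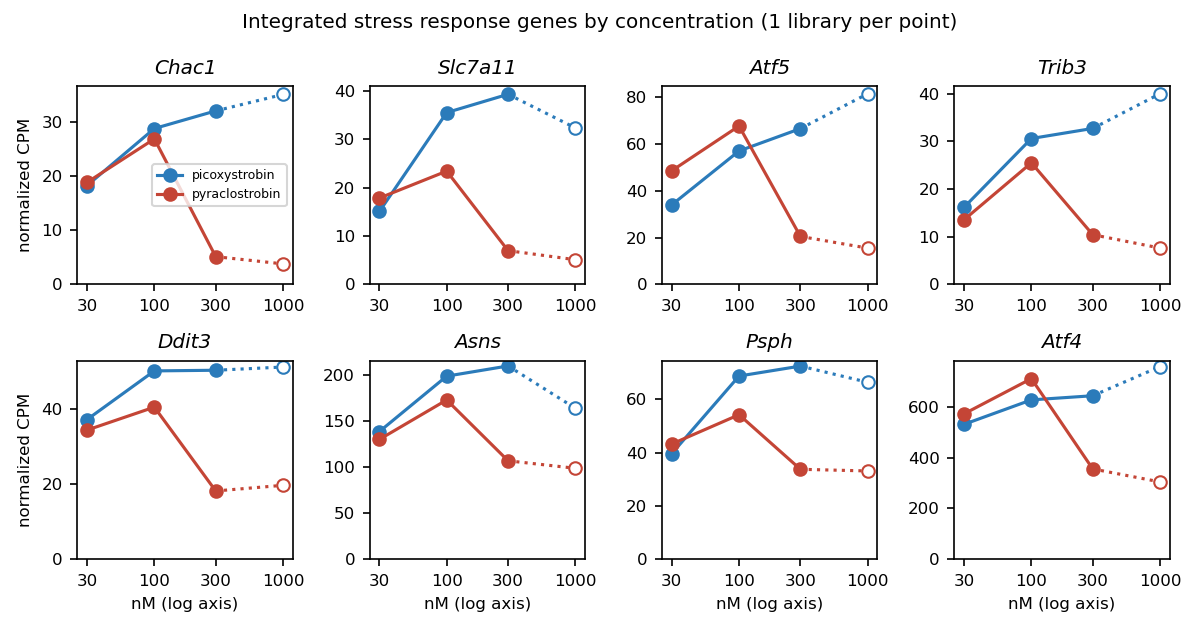
Normalized CPM (y axis, linear from 0) against concentration (x axis, nM, log axis) of 8 genes of the integrated stress response, with 1 library per point, blue for picoxystrobin and red for pyraclostrobin, and open points at 1000 nM for libraries outside the main fit. Picoxystrobin values are higher from 100 nM on than at 30 nM, and pyraclostrobin values drop between 100 and 300 nM, from 26.9 to 5.10 CPM in Chac1.

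Aminoacyl-tRNA synthetases, several of which are known Atf4 targets, had 4 of 32 tested members with a negative slope, Aars, Eprs, Iars and Nars, and 0 with a positive slope, and 3 and 0 with the GC correction. For this list and the next, 1.97% of all tested genes had a negative and 1.61% a positive slope, or 0.659% and 1.02% with the correction. Aars, alanyl-tRNA synthetase, called in both fits, was at 94.7, 120.1 and 110.1 CPM with picoxystrobin and 96.1, 109.8 and 65.1 CPM with pyraclostrobin. Eprs and Iars were not called with the correction (adjusted p of 0.102 and 0.051). Chaperones of the endoplasmic reticulum had 2 of 27 with a negative slope, Xbp1 (-0.42) and Dnajb9 (-0.36), of which Xbp1, a factor of the unfolded protein response, was called with the correction too. Dnajb9, a cochaperone, was also called for the difference, at -0.60 ± 0.13. Hspa5, the main chaperone of that compartment, was at 729, 765 and 823 CPM with picoxystrobin and 672, 579.8 and 536 CPM with pyraclostrobin, without overlap, at a log2 difference of -0.38 that missed the threshold (95% interval -0.61 to -0.15, adjusted p = 0.0517).

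Transcripts of the mitochondrial genome differed at 300 nM, and the difference varied from gene to gene. Of 37 genes 10 passed the filter, and 5 of these had a negative slope, mt-Cytb, mt-Nd4, mt-Nd5, mt-Nd6 and mt-Nd2, against 0 with a positive slope. Over all tested genes 1.97% had a negative slope and 1.61% a positive slope. mt-Cytb, cytochrome b (chrM:14145-15288), was at 19021, 17905 and 21538 CPM with picoxystrobin and 21497, 19910 and 4835 CPM with pyraclostrobin, a slope of -1.17 ± 0.22 (adjusted p = 0.0274). The 300 nM pyraclostrobin library stood alone, whereas at 30 and 100 nM the compounds differed by 0.18 and 0.15 log2 units. mt-Nd4, a complex I subunit (chrM:10167-11544), was at 9271, 8837 and 11576 CPM against 9659, 8938 and 3406 CPM. With the GC correction 0 of the 10 slopes were called by edgeR, with an adjusted p of 0.0663 for mt-Cytb. The GC content of the 10 genes was 34.1% to 44.8%.

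Along the mitochondrial genome the low values lay toward one end. In gene order the log2 differences at 300 nM were 1.19 for mt-Rnr1 (chrM:70-1024), the small ribosomal RNA, 0.12 for mt-Rnr2, the large one, -0.07 for mt-Nd1, -1.10 for mt-Nd2, -0.13 for mt-Co1, -1.77 for mt-Nd4, -1.69 for mt-Nd5, -1.62 for mt-Nd6, -2.16 for mt-Cytb and -1.43 for mt-Tp. Each of the 5 genes from mt-Nd4 onward was thus lower than each of the 5 before it. At 1000 nM mt-Cytb was low with both compounds, at 6157 CPM with picoxystrobin and 3033 CPM with pyraclostrobin. mt-Rnr1 was at 2067, 2434 and 2991 CPM with picoxystrobin and 2485, 2072 and 6819 CPM with pyraclostrobin, and at 4583 and 9717 CPM at 1000 nM, with a slope that was not called (adjusted p = 0.169). In the comparison of the 300 and 1000 nM libraries mt-Cytb was lower with pyraclostrobin, at a log2 difference of -1.60, without the correction (adjusted p = 0.00327) and with it (adjusted p = 0.00267). With the correction edgeR called 5 of the 10 genes lower and 1 higher, against 0.756% and 0.562% of all genes. The others called lower were mt-Nd4, mt-Nd5, mt-Nd6 and mt-Tp. The gene called higher was mt-Rnr1, at a log2 difference of 1.14 (adjusted p = 0.0394).

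**Figure D4:**
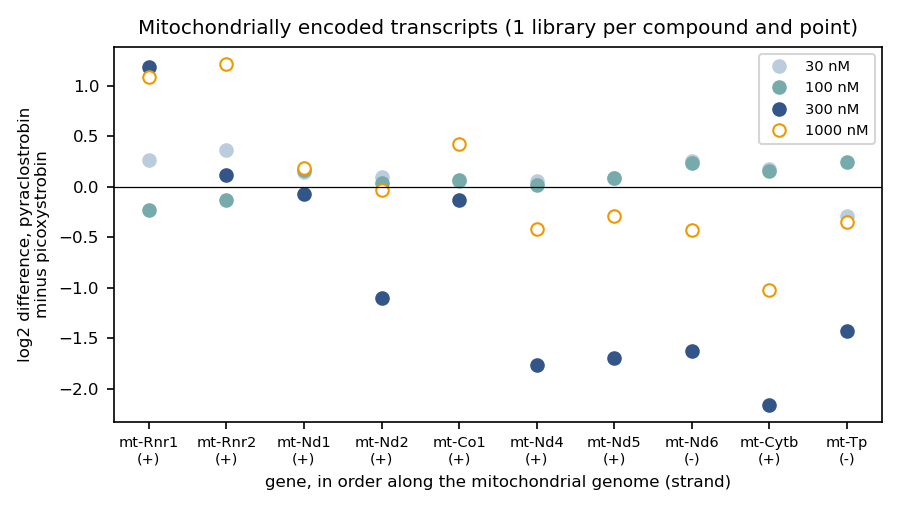
Log2 difference between pyraclostrobin and picoxystrobin (y axis) of the 10 mitochondrially encoded transcripts tested, ordered along the mitochondrial genome (x axis, strand in brackets), with 1 library per compound and point and open points at 1000 nM. At 300 nM the points run from 1.19 for mt-Rnr1 to -2.16 for mt-Cytb, and at 30 and 100 nM all lie between -0.29 and 0.37.

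Nuclear genes of complex III, the target of both compounds, were in part higher with pyraclostrobin. Of 13 tested members 5 were called higher and 1 lower, against 4.83% and 3.68% of all tested genes, and 0 had a called slope by edgeR. Uqcr10, a small subunit, was at 93.7, 83.5 and 77.2 CPM with picoxystrobin and 113, 115 and 128 CPM with pyraclostrobin, a log2 difference of 0.49 ± 0.09. Uqcr11 (0.41), Uqcrq (0.37), cytochrome c1, Cyc1 (0.37), and the assembly factor Bcs1l (0.45) were the other members called higher, and none of the 5 overlapped between the compounds, as was so for most genes called. Uqcrb was called lower, at 48.8, 58.1 and 67.0 CPM against 43.0, 37.8 and 46.4 CPM. With the GC correction the log2 differences were 0.36 for Uqcr10, 0.33 for Uqcrq and 0.37 for Bcs1l, but 0.15 for Uqcr11 and 0.08 for Cyc1. edgeR then called none of the 6, and DESeq2 called Uqcrq and gave no adjusted p for Bcs1l. The median difference of the list was 0.26, or 0.14 with the correction, against 0.05 for 42 complex I genes, of which 2 were higher and 1 lower, and 0.05 for 30 genes of complexes II, IV and V, of which 4 were higher and 0 lower. At 1000 nM the complex III median was -0.01. There Uqcr10 was at 111 CPM with picoxystrobin and 109 CPM with pyraclostrobin, and Uqcrb at 32.9 and 69.1 CPM, the opposite direction.

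Genes of cholesterol synthesis were in part higher with pyraclostrobin. Of 25 tested members 3 were called higher and 0 lower, against 4.83% and 3.68% of all tested genes. A positive slope was called for 6, and for 4 with the GC correction, against 1.61% and 1.02% of all tested genes. Tm7sf2, a sterol reductase, was at 11.2, 13.0 and 14.9 CPM with picoxystrobin and 14.5, 22.7 and 27.9 CPM with pyraclostrobin, a log2 difference of 0.71 ± 0.13. Mvd, of the mevalonate branch, was at 48.6, 51.6 and 47.99 CPM against 58.2, 80.5 and 92.0 CPM, and Dhcr7, the last enzyme of the pathway, had a log2 difference of 0.44. Acat2, which makes the first intermediate, was at 167, 166 and 155 CPM against 183, 236 and 332 CPM, a slope of 0.48 ± 0.07 (adjusted p = 0.0118). At 1000 nM Acat2 was at 273 CPM with picoxystrobin and 258 CPM with pyraclostrobin. The list's median difference was 0.03, 0.14 and 0.42 at 30, 100 and 300 nM and -0.16 at 1000 nM. Sterol element letters, TCACNCCAC on either strand, were in 1 of 18 member windows, that of Hmgcs1, against 1.42% of tested genes.

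Tubulin genes had 4 of 12 members called higher and 0 lower, and 3 with a positive slope, 1 of them with the GC correction. Over all tested genes, for each list of this paragraph, 4.83% were called higher and 3.68% lower. A positive slope was called for 1.61%, or 1.02% with the correction. Tuba1b, an alpha tubulin, was at 105, 88.7 and 79.9 CPM with picoxystrobin and 137, 122 and 149 CPM with pyraclostrobin, a log2 difference of 0.58 ± 0.10. Tubb3 and Tuba4a had log2 differences of 0.68 and 0.59, and the compounds did not overlap in any of the 3. The list's median difference was 0.41, or 0.26 with the correction, at a median GC content of 55.2%. At 1000 nM the list's median was -0.21, with Tuba1b at 166.5 CPM with picoxystrobin and 142 CPM with pyraclostrobin. Of 40 lysosomal genes 6 were higher and 0 lower, led by the protease Ctsd at a log2 difference of 0.65 ± 0.11. Of 28 immediate early genes, which respond first to signals, 6 were higher and 1 lower, and Jun was at 140.4, 125 and 141 CPM against 167, 190.5 and 186 CPM. The median difference of the immediate early list went from 0.12 to -0.02 with the correction, and it was -0.37 at 1000 nM, where that of the lysosomal list was -0.08.

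RNA-processing genes were in part lower with pyraclostrobin. The counts of called genes in this paragraph stand against 3.68% lower and 4.83% higher over all tested genes. Of 53 splicing factors 17 were called lower and 1 higher, with a median GC content of 43.9% and a median difference of -0.25, which was -0.14 with the GC correction. Luc7l2, which takes part in the choice of splice sites, was at 152, 147 and 175 CPM with picoxystrobin and 108, 105 and 114 CPM with pyraclostrobin, a log2 difference of -0.53 ± 0.07. Ptbp2, a splicing repressor of neural cells, had a log2 difference of -0.79, Clk4, a kinase of splicing factors, -0.52, and the SR protein Srsf11 -0.42, and in these 4 genes the compounds did not overlap. With the correction 23 of the 53 had an unadjusted p below 0.05 on the lower side and 0 on the higher side, against 9.95% and 12.6% of all genes. Nuclear and snoRNA-host long noncoding RNAs had 6 of 19 lower and 0 higher, among them Gas5 (log2 difference -0.56), Kcnq1ot1 (-0.58) and Dleu2 (-0.75). Of 219 Zfp zinc finger genes 24 were lower and 5 higher, and their median difference went from -0.14 to -0.02 with the correction, at a median GC content of 43.7%. At 1000 nM the medians of the splicing, noncoding RNA and Zfp lists were 0.11, 0.04 and 0.19.

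Of 47 genes of collagen and extracellular matrix 3 were called lower and 1 higher, against 3.68% and 4.83% of all tested genes. With the GC correction 23 had an unadjusted p below 0.05 on the lower side and 2 on the higher side, against 9.95% and 12.6% of all genes. The list's median difference was -0.0025 without the correction and -0.17 with it, at a median GC content of 53.7%. The lower median over the 3 concentrations thus appeared only with the correction. By single pairs without it, the median was -0.04, 0.06 and -0.15 at 30, 100 and 300 nM, and -0.34 at 1000 nM. Thbs1, thrombospondin, was at 229, 227 and 297 CPM with picoxystrobin and 163, 153 and 152 CPM with pyraclostrobin, a log2 difference of -0.68 ± 0.10, or -0.71 with the correction. The others called lower were Col12a1, a fibril-associated collagen (-0.29), and Col4a3bp (-0.44), which entered the list by its symbol and is a ceramide carrier. Of the 7 fibroblast markers tested 4 had an unadjusted p below 0.05 on the lower side with the correction and 0 on the higher side. Col1a1 was at 3259, 3339.6 and 3348 CPM with picoxystrobin and 2837, 3048 and 1904 CPM with pyraclostrobin. The part of these marker genes in the matrix result was not tested.

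With the 300 nM pair left out and the GC correction applied, a setting chosen after the data were seen, edgeR called 476 of 9724 genes higher (4.9%) and 375 lower (3.86%). Of the p53 targets 11 were higher and 0 lower, with Cdkn1a at 0.45 and Ptp4a3 at 0.42. Of the splicing factors 16 were lower and 0 higher, and of the matrix genes 14 were lower and 2 higher. Of the stress response genes 2 were higher and 3 lower. Of the mitochondrial genes 9 were higher and 0 lower, with mt-Cytb at 0.36, the opposite sign to 300 nM. Without the correction mt-Cytb was at 0.16. The log2 difference of mt-Nd4 was 0.28 with the correction and 0.03 without it, and that of mt-Nd5 0.31 and 0.08. Much of the size of these differences thus came with the correction. With the correction and the 30 nM or the 100 nM pair left out instead, edgeR called 0 genes, and 2221 and 1240 had an unadjusted p below 0.05.

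**Figure D5:**
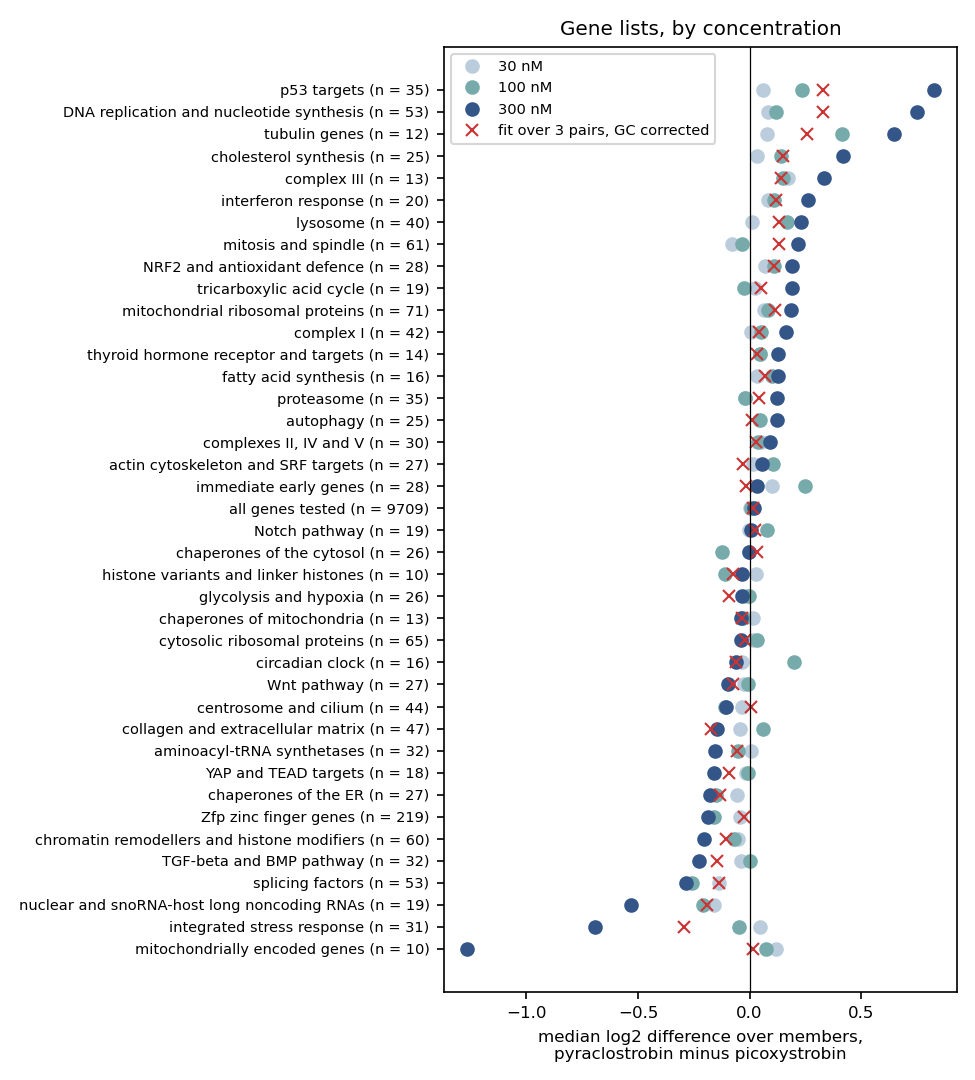
Median log2 difference between pyraclostrobin and picoxystrobin over the tested members of each gene list (x axis; lists with at least 10 tested members on the y axis) at 30, 100 and 300 nM (circles, 1 library per compound) and in the GC-corrected fit over the 3 pairs (crosses). At 300 nM p53 targets (0.83) and replication genes (0.75) stand at the top, and the integrated stress response (-0.69) and mitochondrially encoded genes (-1.26) at the bottom.

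Of 14 tested genes of thyroid hormone signalling, the pathway of the overexpressed receptor, 0 were called by edgeR for the difference or the slope, and 2 higher and 1 lower had an unadjusted p below 0.05 with the GC correction. Klf9, a direct target of the receptor, was at 28.1, 27.9 and 29.4 CPM with picoxystrobin and 27.1, 29.5 and 34.6 CPM with pyraclostrobin, a log2 difference of 0.09 with a 95% interval of -0.13 to 0.31. Thra, the receptor gene, was at 64.1, 58.4 and 51.9 CPM against 72.4, 74.5 and 65.8 CPM. Its log2 difference of 0.29 (95% interval 0.11 to 0.47, adjusted p = 0.0529) was 0.03 with the correction. Hr, another direct target, was below the filter and not tested, at 2.82, 3.19 and 2.26 CPM with picoxystrobin and 3.93, 4.07 and 4.79 CPM with pyraclostrobin (CPM of the library total), without overlap. Hprt, the reference gene of the study, had a log2 difference of -0.22 (95% interval -0.42 to -0.02), which was 0.01 with the correction.

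The remaining lists are given by their counts, to be read against 4.83% higher and 3.68% lower over all tested genes. Mitochondrial ribosomal proteins had 3 of 71 higher and 2 lower, cytosolic ribosomal proteins 4 of 65 and 4, antioxidant genes under NRF2 5 of 28 and 0, and chromatin genes 1 of 60 and 5. Fatty acid synthesis had 3 of 16 higher, the interferon response 2 of 20, the Notch pathway 2 of 19 and the actin cytoskeleton 2 of 27, each with 0 lower. YAP targets had 1 of 18 higher and 2 lower, the TGF-beta pathway 1 of 32 and 2, cytosolic chaperones 2 of 26 and 1, cilium genes 1 of 44 and 1, and histone variants 1 of 10 and 0. Mitochondrial chaperones had 1 of 13 lower and 0 higher, and glycolysis (26 tested), the proteasome (35), autophagy (25) and the Wnt pathway (27) each had 1 member higher and 0 lower. For the tricarboxylic acid cycle (19) and the circadian clock (16) edgeR called 0, with 4 higher and 1 lower and with 1 higher and 1 lower at an unadjusted p below 0.05 in the corrected fit. Of clustered histone genes only 2 passed the filter, and Hist1h1c, a linker histone, had a called slope of -0.69.

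The strand setting of the counting is not given in the sources used here, so reads of a gene cannot be told apart from those of a gene whose exons overlap it on the other strand. Among the genes named, the annotation has such overlaps for Aars, Aldh1l2, Atf5, Ccne2, Cdkn1a, Cebpb, Col4a3bp, Ddit3, Dleu2, Dnajb9, Gins2, Hmgcs1, Jun, Kcnq1ot1, Luc7l2, mt-Co1, mt-Nd5, mt-Nd6, Notch3, Pck2, Psph, Rad54l, Rpl22l1, Thbs1, Thra, Tk1, Tuba1b, Tuba4a and Uqcrb. Exons overlap another gene on the same strand for 1810026B05Rik, Aars, Aldh4a1, Clk4, Ctsd, Dleu2, Gas5, Gm13889, Mir17hg, mt-Nd1, mt-Nd2, mt-Nd4, Tm7sf2 and Tuba1b, whose counts are uncertain for that reason.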

How the data were processed

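C17.2α cells were sequenced as single libraries per compound and concentration (Lexogen SENSE total RNA kit, NextSeq500, single-end). Per the submitters' processing notes and methods, the authors aligned reads to mm10 with Bowtie2 2.3.2.2 and counted them with htseq-count, and the deposited values are raw counts for 54658 gene symbols, of which 54092 were found in GENCODE M21 and 14 look like dates. The annotation used for counting is not given in the sources used here. The members and lists were chosen with earlier results of these data known.

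Genes averaging above 10 CPM in the 6 libraries (9709) were tested with edgeR 4.0.16 (TMM, quasi-likelihood, R 4.3.3) with compound and concentration as terms, and the slope as compound by concentration rank. p-values were adjusted by Benjamini-Hochberg over all tested genes at a threshold of 0.05. CPM values use the TMM factors, and differences of single pairs a prior count of 2. The GC correction was a natural spline with 4 degrees of freedom on the GC content of the longest GENCODE M21 transcript, fitted to each library and used as an offset, with a value for 99.7% of tested genes. The scripts were tested on simulated data. Named genes were the largest differences called with both fits (0 genes), the 5 largest in each direction called without the correction only, the 5 largest slopes in each direction, up to 4 members of a list with the lowest p or a defining member, and Hr, Klf9, Thra and Hprt. Other members named for their slope or their difference at 300 and 1000 nM, and the promoter letters, were chosen after their values were seen. Alternatives were RLE factors, other filters, DESeq2 1.42.0, robust estimates, a length correction, no block, the 1000 nM libraries added, and libraries left out. Libraries were paired by concentration as designed, and deviations from the compound means correlated at -0.07, 0.35 and 0.21 at 30, 100 and 300 nM. The depth of 12292390 to 18188099 counts limits counting error only.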

Additional observations from a re-analysis of the deposited data

Results flagged for a closer look

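The effect of concentration differed between the compounds, by the interaction term, for 156 genes with a positive slope of the log2 difference, pyraclostrobin minus picoxystrobin, and 191 with a negative slope. The 5 most positive slopes, in log2 units per step, were those of Nanos1 (1.08), Cdkn1a (0.96), Pidd1 (0.88), Gtse1 (0.85) and Notch3 (0.81). The 5 most negative were those of Slc7a11 (-1.36), Chac1 (-1.26), mt-Cytb (-1.17), Atf5 (-1.10) and mt-Nd6 (-0.94). Nanos1, an RNA-binding protein, was at 8.14, 7.18 and 8.09 CPM with picoxystrobin at 30, 100 and 300 nM and 8.24, 6.02 and 34.3 CPM with pyraclostrobin, and its adjusted p went from 0.0384 to 0.0542 with the GC correction. Pidd1, a p53-induced death domain protein, was at 10.5, 9.75 and 8.73 CPM against 10.5, 13.8 and 29.4 CPM. Notch3, a Notch receptor, was at 14.7, 14.8 and 14.5 CPM against 16.97, 25.5 and 50.8 CPM.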

How the results depend on the processing

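The 826 genes called for the difference were 741 with RLE factors, 558 with edgeR's own filter, 835 with DESeq2, 848 with robust estimates and 709 with no replicate block. They were 2666 with no filter on low counts, and 0 with the block and GC correction, with GC and length correction, with GC correction and no block, and with the 1000 nM libraries added without or with GC correction, where 2188, 2165, 1984, 744 and 1453 had an unadjusted p below 0.05 in edgeR. DESeq2 with GC correction called 125. Leaving out single libraries or pairs gave 0 to 2399 calls, namely 2399, 377 and 1481 without the 30, 100 and 300 nM pair, and 0, 0 and 851 with GC correction. The 300 and 1000 nM pairs alone gave 26, or 129 with GC correction. The 347 slopes were 317 with robust estimates, 650 with RLE factors, 999 with edgeR's filter, 914 with none, 37 with DESeq2, 163 with GC correction, 48 with GC and length correction, 20 with DESeq2 and GC correction, and 0 with the 1000 nM libraries added, without or with GC correction (516 and 871 at an unadjusted p below 0.05). The cause of these changes was not tested. No slope could be tested with a pair left out, as no residual degrees of freedom remain. Over 44 named differences and 26 alternatives, where a gene had a value, 510 values kept direction and side of the threshold, 575 lost the call, 13 gained it and 17 changed sign. For 28 named slopes and 10 alternatives these were 147, 115, 2 and 1. Another 19 and 15 values with no adjusted p from DESeq2 were left out. The sign changed for Klf9 (-0.0100 without the 300 nM pyraclostrobin library, where leaving out single libraries or pairs gave up to 0.170), Thra (-0.0124 with 1000 nM added and GC correction, -0.0902 and -0.0680 at 300 and 1000 nM without and with it), Cyc1 (-0.0210 with GC correction and without 300 nM) and the slope of Acat2 (-0.00597 with 1000 nM added). Uqcrb was at 0.0158 with 1000 nM added and GC correction, and 0.253 and 0.245 at 300 and 1000 nM without and with it. Hprt was at 0.0136 with GC correction, 0.00988 with GC correction and no block, 0.0137 in DESeq2 with it, 0.0396 and 0.132 with 1000 nM added without and with it, 0.0304 and 0.0419 with it and without the 100 or 300 nM pair, and 0.213 and 0.208 at 300 and 1000 nM without and with it.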

Other observations

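The following genes were on none of the lists and were chosen after their values were seen, for a slope called with and without the GC correction, so they stand as single genes and not as a group. Bard1, the partner of Brca1, was at 52.8, 40.7 and 48.1 CPM with picoxystrobin at 30, 100 and 300 nM and 47.1, 47.5 and 104 CPM with pyraclostrobin, a slope of 0.64. Brip1, Rad54l and Exo1 had slopes of 0.53, 0.69 and 0.47. Negative slopes were those of Slc1a4, a neutral amino acid transporter (-0.43), Gpt2, mitochondrial alanine transaminase (-0.39), and Xpot, which exports tRNA (-0.34).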
